A study of Saccharomyces cerevisiae with 58 samples.

Results

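The comparison described here is that of the rpb6 mutant with its wild type before any treatment, read from the arrays taken at 0 min in the courses with H2O2, with MMS and with phenanthroline alone, the reference decay course. The members are 6 of the 58 arrays of the study, 3 per strain, and the mutant array of each course was set against the wild-type array of the same course. The mutant, strain 212, carries the rpb6 Q100R substitution and has its chromosomal gene replaced (RPB6delta::HIS3), with rpb6 supplied from a CEN plasmid marked with LEU2. The wild type, strain 211 (WY37), is its parent, and both are MATalpha and carry ade2, lys2delta201, his3delta200 and ura3-52. Cells of both strains grew in YPD at 30 degrees to mid log phase, and total RNA was labelled from poly(T) primers and hybridised to Affymetrix Yeast 2.0 arrays. The study then treated the cultures with H2O2, with the alkylating agent MMS, or with phenanthroline, which stops transcription, to follow mRNA abundance and decay. Its methods describe the mutant as slower growing, and the mutant also carries the HIS3 and LEU2 markers of its construction. Differences that go with growth rate, with these markers or with the substitution cannot be told apart in these arrays. The mutant is 1 strain with its gene on a plasmid, and each array comes from 1 culture.

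Rpb6, encoded by RPO26, is a subunit shared by RNA polymerases I, II and III. In RNA polymerase II it lies at the base of the stalk that holds the Rpb4/7 pair, a module that joins the enzyme during transcription and has also been linked to the fate of the mRNA in the cytoplasm. A change in this subunit can therefore touch the making of mRNA, of ribosomal RNA and of transfer RNA, and the untreated state shows which mRNAs differ between the strains before any stress is applied.

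The deposited values are log2 levels from robust multi-array average (RMA). Arrays normalized together by RMA receive one common distribution, so that every difference below is relative to the average mRNA of the array. The H2O2 pair is called pair 1, the MMS pair is pair 2 and the reference decay pair is pair 3. Within each pair the levels of wild type and mutant correlated across 5498 probe sets at 0.990, 0.985 and 0.984 (Pearson), and the median difference was 0.00, -0.03 and -0.03. The differences of pairs 1 and 2 correlated at 0.54, those of pairs 1 and 3 at 0.61 and those of pairs 2 and 3 at 0.63, across genes, which are not independent replicates. Of the probe sets 97.1% had a mean level above 5.10, the 95th percentile of the probe sets for S. pombe that these arrays also hold.

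The mutant differed from the wild type in 132 of the 5498 probe sets (2.4%), with 63 higher (1.15%) and 69 lower (1.26%), in limma with the pair as a block and Benjamini-Hochberg adjusted p under 0.05. All 132 had the same sign in the 3 pairs, which held for 50.6% of all probe sets. In 81 of them the 3 levels of one strain lay entirely above those of the other, against 7.64% of all probe sets. The test that made the calls used these same differences, so neither count adds support to them. The changes reached further down than up, with 28 called lower and 13 called higher by over 2-fold. The count depended on which pair was left out. Without pair 1 it was 115, without pair 2 it was 9 and without pair 3 it was 18. Of these calls 56, 7 and 15 were among the 132. Separate cultures stand behind the pairs only as far as the course labels show it. The p-values and SEs rest on the spread between these 3 pairs, moderated by limma towards that of all probe sets.

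**Figure D1:**
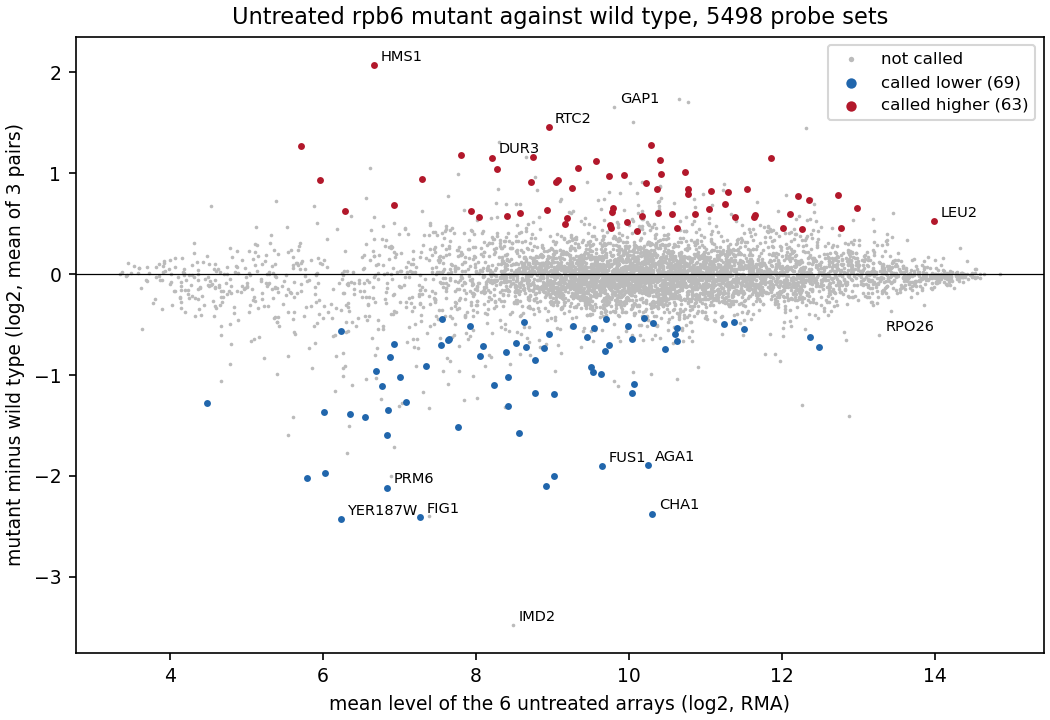
Difference between mutant and wild type (log2, mean of 3 pairs) against the mean level of the 6 untreated arrays (log2), with 1 point for each of 5498 probe sets. Blue points are the 69 called lower, red points the 63 called higher and grey points those not called; IMD2, the lowest point at -3.48, was not called because its pairs differ in size.

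RPO26 mRNA was measured first, although its probe set reads the plasmid copy as well and so does not test the substitution. Its levels were 13.50, 13.77 and 13.46 in the wild-type arrays and 12.60, 13.32 and 13.01 in those of the mutant in pairs 1, 2 and 3. All 3 mutant levels lay below all 3 wild-type levels, by 0.60 on average (SE 0.12), and the difference was not called (adjusted p = 0.0679 by limma). Of the 12 RNA polymerase II subunit genes 0 were called, with 3 at an unadjusted p under 0.05, and their median difference was -0.09 against -0.02 for all genes. They ranged from -0.60 for RPO26 to 0.15. RPB4 and RPB7, which encode the stalk that Rpb6 contacts, differed by 0.01 (adjusted p = 0.965) and -0.20 (adjusted p = 0.148). Among the marker genes, LEU2, which the plasmid carries, was at 13.63, 13.66 and 13.90 in wild type against 14.22, 14.20 and 14.36 in the mutant, and rose by 0.53 (SE 0.07, adjusted p = 0.0442). The 3 mutant levels lay above the 3 wild-type levels, and the wild type also gave a strong LEU2 signal. HIS3, which replaces the chromosomal RPB6 copy in the mutant, was at 10.59, 11.06 and 10.95 in the wild-type arrays, well above background although that strain carries his3delta200, and at 11.13, 12.38 and 11.53 in those of the mutant (adjusted p = 0.0825). URA3, in which both strains carry ura3-52, was at 8.04, 9.06 and 8.30 in wild type against 7.51, 7.79 and 7.09 in the mutant (difference -1.0, adjusted p = 0.0586).

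The difference with the greatest size in the table was that of IMD2, an IMP dehydrogenase of the guanine nucleotide pathway whose transcription falls when GTP is plentiful. IMD2 was at 10.51, 10.31 and 9.83 in the wild-type arrays and at 8.67, 5.55 and 6.0 in those of the mutant. Every mutant array lay below every wild-type array, and the mean difference of -3.48 (SE 0.55) is 11.1-fold, but the pairs differed by -1.84, -4.75 and -3.83 and the adjusted p was 0.0544. Without pair 1 it was 0.0127, without pair 2 0.103 and without pair 3 0.146. In the treated arrays of the 4 courses IMD2 was lower in the mutant in 26 of 26 matched pairs, with a median difference of -3.68.

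The paralogue IMD3 was called, with levels of 12.59, 13.23 and 12.73 in wild type against 11.97, 12.57 and 11.85 in the mutant. It fell by 0.72 (SE 0.08, adjusted p = 0.0378), and the strains did not overlap. IMD4, the third expressed copy, had a difference of -0.18 (adjusted p = 0.341). Of the 15 genes listed for GTP and pyrimidine supply 2 were called lower, IMD3 and the uracil phosphoribosyltransferase gene FUR1 (-0.63), and 1 was called higher, the pyrimidine nucleotidase gene SDT1 (0.82). The median of the 15 genes was -0.13. FCY21 (-1.31) and FCY22 (-0.82), relatives of the purine-cytosine permease, were also called lower.

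Genes that pheromone induces for mating were lower in the mutant as a group. Haploid cells answer pheromone through a MAP kinase cascade that ends at the activator Ste12, and the genes it switches on serve agglutination, cell fusion and nuclear fusion. Of the 20 listed genes 9 were called lower and 0 higher, and 18 (90%) were lower in all 3 pairs, against 28.9% of all genes. Their median was -0.75, and it was -0.60, -0.92 and -0.64 in pairs 1, 2 and 3. The number called was 7, 3 and 4 without pairs 1, 2 and 3.

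FIG1, a membrane protein of calcium influx and cell fusion, was at 8.22, 9.02 and 8.19 in wild type against 6.05, 5.78 and 6.38 in the mutant. It fell by 2.41 (SE 0.28, 5.3-fold, adjusted p = 0.0385). FUS1, which acts in cell fusion, was at 10.27, 11.27 and 10.27 in the wild-type arrays and at 8.64, 9.06 and 8.39 in those of the mutant, and fell by 1.90 (SE 0.12, adjusted p = 0.0139). AGA1, the anchor of a-agglutinin at the cell surface, was at 11.11, 11.58 and 10.92 in wild type against 9.15, 9.41 and 9.36 in the mutant. For these 3 genes every mutant array lay below every wild-type array. PRM6, a pheromone-regulated membrane protein, had levels from 7.77 to 8.12 in the wild type and from 5.73 to 5.82 in the mutant, and fell by 2.12 (SE 0.09, adjusted p = 0.00851). It was the 1 probe set still called without the block. PRM1 (-1.51), the adhesin gene FIG2 (-0.97), the fusion gene FUS2 (-0.81), the kinase gene FUS3 (-0.76) and the karyogamy activator gene KAR4 (-0.74) were called as well. In FIG2, FUS3 and KAR4 the levels of the strains overlapped, and the call rests on the pairing. Of the genes not called, PRM3, for nuclear fusion, was at -1.32 (adjusted p = 0.0577), the arrest factor gene FAR1 at -0.66 (adjusted p = 0.0664) and SST2, which dampens the signal, at -0.60 (adjusted p = 0.0873). STE12 itself was at -0.47 (adjusted p = 0.0544) and GPA1, the G protein alpha subunit, at -0.41 (adjusted p = 0.0944). ASG7 was the gene of the list that was higher in all 3 pairs, at 0.45 without a call (adjusted p = 0.119).

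Ty3 is a retrotransposon whose transcription is also induced by pheromone. All 3 of its tested probe sets were called lower. YGR109W-A was at 9.76, 10.10 and 10.05 in the wild-type arrays and at 7.31, 8.24 and 8.05 in those of the mutant, and fell by 2.10 (SE 0.13, adjusted p = 0.0139). YIL082W-A fell by 1.18 and YGR109W-B by 1.10, and in YGR109W-B the strains overlapped although the pairs differed by -1.13, -1.09 and -1.09. The probe sets YGR109W-A and YIL082W-A match more than 1 copy, so the copies cannot be told apart.

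Genes expressed because the cells are MATalpha differed in size between the pairs. Of the 4 listed genes 0 were called by limma, with 2 at an unadjusted p under 0.05, and their median was -0.73, -1.88 and -0.20 in pairs 1, 2 and 3. MF(ALPHA)1, the main alpha-factor gene, lay between 13.78 and 14.06 on all 6 arrays. MF(ALPHA)2, the minor alpha-factor gene, differed by -0.61, -3.25 and -0.36, so that its mean of -1.41 rests mainly on pair 2 (adjusted p = 0.219). SAG1, the alpha-agglutinin, differed by -1.46, -2.16 and -0.27, and STE3, the receptor for a-factor, by -0.85, -1.60 and -0.13. In the treated arrays the same split appeared by course. The list median was -0.88 in the H2O2 course and -1.50 in the MMS course, and 0.25 and 0.06 in the decay courses without and with H2O2. The 6 a-specific genes had a median of 0.07, with 0 called and 3 at an unadjusted p under 0.05.

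**Figure D2:**
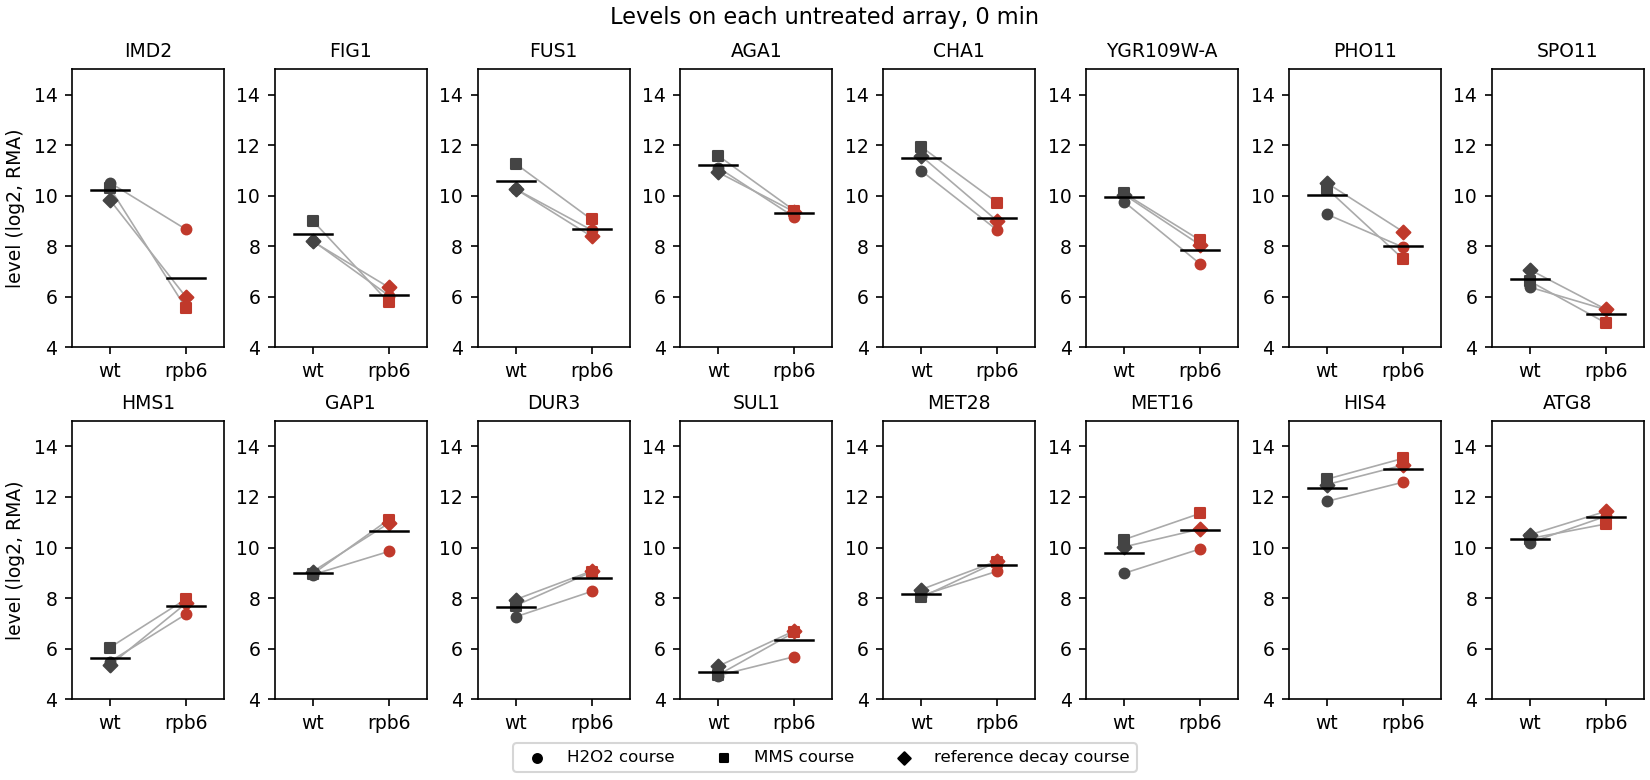
Levels (log2, RMA) of 16 genes on each of the 6 untreated arrays, wild type (grey) beside rpb6 mutant (red), with lines joining the arrays of a course and black bars for the means of 3. The upper row holds genes lower in the mutant, with IMD2 spread from 5.55 to 8.67 in the mutant, and the lower row genes that were higher.

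Among the genes higher in the mutant, those of sulfur amino acid synthesis formed the list with the most calls. Yeast takes up sulfate, reduces it to sulfide and builds homocysteine, methionine and cysteine from it, under activators that include Met28. Of 22 genes 8 were called higher and 0 lower, and 17 (77.3%) were higher in all 3 pairs, against 21.9% of all genes. The median was 0.54, and it was 0.50, 0.65 and 0.45 in pairs 1, 2 and 3. Without pair 1 the number called was 5, and without pair 2 or pair 3 it was 0.

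MET28 was at 8.10, 8.03 and 8.34 in wild type against 9.07, 9.44 and 9.47 in the mutant, and rose by 1.17 (SE 0.10, adjusted p = 0.0302). The sulfate permease gene SUL1 was at 4.94, 4.97 and 5.31 in the wild-type arrays, not above background on average, and at 5.69, 6.65 and 6.71 in those of the mutant (difference 1.27, adjusted p = 0.0499). In both genes the strains did not overlap. The second sulfate permease gene SUL2 rose by 1.04, the methionine permease gene MUP3 by 0.91 and the reductase gene MET16 by 0.90. The cystathionine beta-lyase gene STR3 rose by 0.85, the methylenetetrahydrofolate reductase gene MET13 by 0.61 and the sulfite reductase gene MET5 by 0.60. STR2, which encodes cystathionine gamma-synthase and is not in the list, rose by 0.80. In SUL2, MUP3, MET16, STR3, STR2 and MET5 the levels of the strains overlapped, since these genes also varied between courses, and within each pair the mutant was higher.

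Other amino acid lists had fewer calls. Of the 9 arginine genes 0 were called, but 8 (88.9%) were higher in all 3 pairs, with a median of 0.55. An unadjusted p under 0.05 by limma was reached by 7, against 25.9% of all probe sets. The number at an adjusted p under 0.10 was also 7, against 485 of the 5498 probe sets. CAR2, the ornithine transaminase, was at 0.90 (adjusted p = 0.0786) and CAR1, the arginase, at 0.55 (adjusted p = 0.0544). Among 17 histidine and aromatic genes, with a median of 0.32, HIS4 rose by 0.78 (SE 0.06, adjusted p = 0.0256), with differences of 0.76, 0.82 and 0.77. Among 8 lysine genes, with a median of 0.22, the saccharopine dehydrogenase genes LYS1 (1.01) and LYS9 (0.56) were called. Of 10 branched-chain genes 0 were called, with a median of 0.14 and 4 higher in all 3 pairs. PCL5, a cyclin that promotes the turnover of the amino acid regulator Gcn4, rose by 0.73. The catabolic serine deaminase gene CHA1 went the other way. It was at 10.99, 11.93 and 11.57 in wild type against 8.64, 9.73 and 9.0 in the mutant, and fell by 2.37 (SE 0.09, 5.18-fold, adjusted p = 0.00851), with no overlap.

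Genes for the uptake and use of poor nitrogen sources, which yeast keeps repressed while good ones last, were mixed. Of 19 genes 2 were called higher and 0 lower. An adjusted p under 0.10 by limma was reached by 10, of either sign, against 485 of the 5498 probe sets. The number called was 6 without pair 1 and 0 without pair 2 or pair 3. DUR3, a transporter of urea and polyamines, was at 7.26, 7.70 and 7.94 in the wild-type arrays and at 8.27, 9.04 and 9.07 in those of the mutant, and rose by 1.16 (SE 0.09, adjusted p = 0.0181). GAP1, the general amino acid permease, was at 8.93, 8.96 and 9.05 in wild type against 9.85, 11.11 and 10.96 in the mutant. Its mean difference was 1.66 (SE 0.25) and just missed the threshold (adjusted p = 0.0516), although the strains did not overlap. The ammonium permease gene MEP1 rose by 0.85 and PUT3, the activator of proline use, by 0.62, but the list does not hold both. PUT1, the proline oxidase, was at 1.51 without a call (adjusted p = 0.0663 by limma). Outside the list, DCG1, a gene of unknown function that is under nitrogen control, fell by 1.58 (SE 0.10, adjusted p = 0.0139 by limma).

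The gene with the greatest rise among those called was HMS1, which encodes a helix-loop-helix protein linked to filamentous growth. It was at 5.49, 6.05 and 5.35 in the wild-type arrays and at 7.36, 7.96 and 7.79 in those of the mutant, and rose by 2.08 (SE 0.13, 4.22-fold, adjusted p = 0.0139). The strains did not overlap. Called genes outside the lists, chosen here after their values were seen, included some of the vacuole and of autophagy. APE1, a vacuolar aminopeptidase, rose by 1.15, AMS1, the vacuolar mannosidase, by 0.94, ATG8, the coat protein of the autophagosome, by 0.85 and ATG1, the kinase that starts autophagy, by 0.63. In none of these 4 genes did the strains overlap, as in 38 of the 63 probe sets called higher and in 7.64% of all probe sets. RTC2, a vacuolar membrane protein, rose by 1.46, the methyltransferase gene TMT1 by 1.28 and the cardiolipin deacylase gene CLD1 by 1.05. ADR1, an activator of genes for growth on poor carbon sources, rose by 0.91 and the peroxisomal oxidase gene POX1 by 0.93. FMP23, a mitochondrial protein, rose by 1.13, PKP2, a kinase of mitochondrial pyruvate dehydrogenase, by 0.98, GSC2, a glucan synthase subunit, by 0.83, its relative FKS3 by 0.63 and the lipid droplet gene PLN1 by 0.69.

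The general stress list was higher mainly in pair 3. Of its 36 genes 2 were called higher and 0 lower, with a median of 0.33, and the medians of the pairs were 0.09, 0.10 and 0.73. Without pair 3 the median was 0.08. The genes called did not follow that split, since the test favours genes whose pairs differ by similar amounts. HSP42, a small heat shock protein, differed by 0.92, 1.02 and 0.58 and rose by 0.84 (adjusted p = 0.0434), and SSA4, an inducible Hsp70, differed by 0.61, 0.72 and 0.64. DDR2 was at 0.91 without a call. Of 21 chaperone genes, with a median of 0.01 and 10 below 0, the mitochondrial disaggregase gene HSP78 was the 1 called, at 1.25, 1.47 and 0.69.

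Genes tied to ribosome making were slightly lower and those of respiration slightly higher, with 0 calls by limma in either group. At an unadjusted p under 0.05 stood 25 of 61 processome genes, 29 of 67 large subunit assembly factors and 24 of 39 oxidative phosphorylation genes, against 25.9% of all probe sets. Of 61 genes of the small subunit processome 42 (68.9%) were lower in all 3 pairs, with a median of -0.26 (pairs -0.17, -0.11 and -0.42). Of 67 assembly factors of the large subunit 48 (71.6%) were lower in all 3 pairs, with a median of -0.20, and NOG2, a GTPase of that pathway, was at -0.61 (adjusted p = 0.114). Of the 9 RNA polymerase I subunit genes all had a mean below 0, with a median of -0.19. The ribosomal proteins themselves differed little, with a median of -0.02 over 75 large subunit genes and -0.02 over 52 small subunit genes. Of 39 genes of oxidative phosphorylation 31 (79.5%) were higher in all 3 pairs, against 21.9% of all genes, with a median of 0.33 (pairs 0.41, 0.12 and 0.43) and CYC7, an isoform of cytochrome c, at 0.90 (adjusted p = 0.0762). Of 33 proteasome genes 25 (75.8%) were higher in all 3 pairs, with a median of 0.14, 0 called and 7 at an unadjusted p under 0.05. Of 13 mitotic genes 9 (69.2%) were higher in all 3 pairs, with a median of 0.29, 0 called and 8 at an unadjusted p under 0.05.

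**Figure D3:**
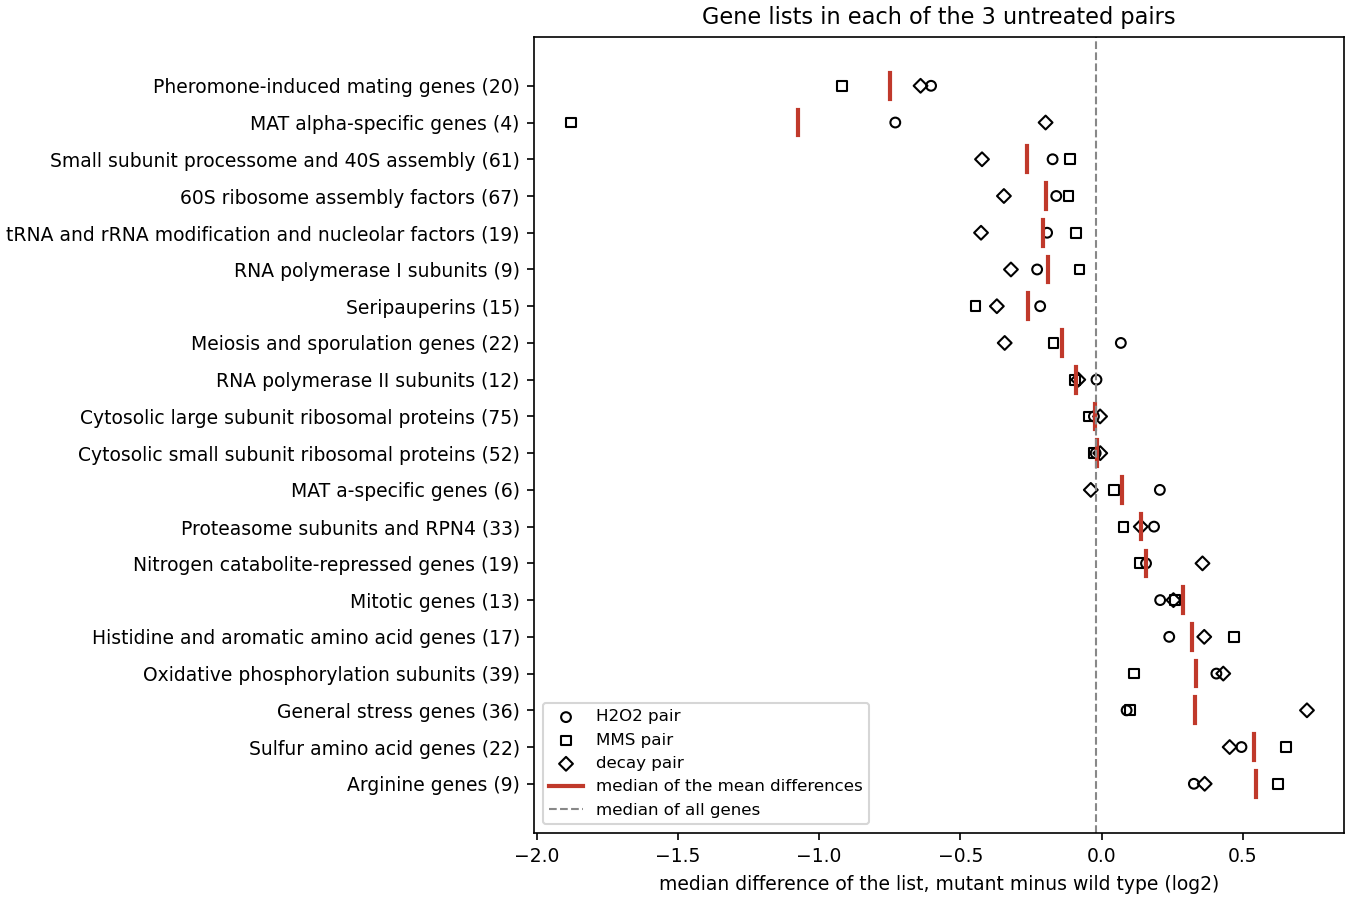
Median difference between mutant and wild type (log2) of 20 gene lists in each of the 3 untreated pairs (open symbols), with the median of the mean differences as a red bar, the median of all genes as a dashed line and the number of measured genes in brackets. Pheromone-induced genes lie at -0.75 and sulfur amino acid genes at 0.54, while general stress genes lie at 0.73 in the decay pair and near 0.10 in the other pairs.

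Some meiotic and subtelomeric genes were also called lower. Of 22 genes of meiosis and sporulation, which a haploid in rich medium holds at low levels, 3 were called lower and 1 higher. The list median was -0.14, with 14 genes below 0 and 8 above. SPO11, which makes the meiotic DNA breaks, was at 6.38, 6.62 and 7.08 in wild type against 5.50, 4.97 and 5.51 in the mutant, and fell by 1.37 (SE 0.17, adjusted p = 0.0433). The sporulation septin gene SPR3 fell by 1.27 and the meiotic cohesin gene REC8 by 0.56, and the recombinase gene DMC1 rose by 0.58. Called genes outside the list are given next, of which AMA1, MPC54, CRR1, LOH1 and SPR6 were chosen after their values were seen. PES4, an RNA-binding protein of sporulating cells, fell by 2.02, and AMA1, an activator of the meiotic anaphase-promoting complex, by 0.96. MPC54, of the meiotic spindle pole body, fell by 0.71, and RIM4, an RNA-binding regulator of meiosis, rose by 1.18. CRR1, of the spore wall, fell by 1.35, LOH1, also of spore wall assembly, by 1.39 and the sporulation gene SPR6 by 0.64. The levels of SPO11 and PES4 in the mutant lay near the background of 5.10, where differences are compressed.

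Of the 69 probe sets called lower 17 (24.6%) belong to the 15 outermost genes of a chromosome arm, against 7.10% of all tested and 5 of the 63 called higher (7.94%). Of the 69 called lower 11 are probe sets of a type that matches several genes, against 0 of the 63 called higher. Their share of all tested probe sets was not counted, so nothing is read from this contrast. The median difference over the 390 tested genes at the chromosome ends was -0.04, close to that of all genes. Among 15 seripauperins, cell wall proteins of the chromosome ends, PAU18 (-0.92), PAU4 (-0.85) and PAU24 (-0.65) were called lower, and their probe sets match several members of the family. YER187W, an open reading frame of unknown function, was at 6.93, 8.19 and 7.22 in the wild-type arrays and at 4.79, 5.60 and 4.66 in those of the mutant, at background in 2 of 3 arrays, and fell by 2.43 (SE 0.11, adjusted p = 0.00872). COS12, of the subtelomeric COS family, differed by -1.63, -3.88 and -1.67 (adjusted p = 0.0736). By whole chromosome the medians lay between -0.07 and 0.00, so that none of the 16 stood apart.

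Genes of metal and phosphate uptake were called in small numbers and in both directions. The acid phosphatase gene PHO11 was at 9.27, 10.28 and 10.50 in wild type against 7.97, 7.51 and 8.58 in the mutant, and fell by 2.0 (SE 0.28, adjusted p = 0.0494). PHM6, of the same phosphate regulon, fell by 1.97 from levels between 6.34 and 7.77, with mutant levels of 5.01, 5.16 and 4.96 that were not above background on average, while PHM8, a phosphatase gene of that regulon, rose by 0.64. Of the 14 measured genes of the regulon no other was called, and the median was -0.18. The reductase genes FRE7 (-0.74) and FRE4 (-0.69), the copper transporter gene CTR3 (-0.72) and the zinc transporter gene ZRT2 (-0.54) were called lower, and the siderophore transporter gene SIT1 (0.99) higher. GEX1, a glutathione exchanger, fell by 1.60, the minor pyruvate decarboxylase gene PDC6 by 0.91 and the kynurenine monooxygenase gene BNA4 by 1.18. The probe sets of PHO11 and GEX1 are of a type that matches several genes. SPE2 (-0.66) and FMS1 (-0.51), both of polyamine synthesis and turnover, were called lower, as were GDH3 (-0.44), a glutamate dehydrogenase, and the potassium transporter gene TRK2 (-0.68).

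Some vitamin genes, also chosen after their values were seen, are given next. SNO3, of the vitamin B6 family, was at 9.50, 9.63 and 9.74 in wild type against 8.43, 8.34 and 8.52 in the mutant, and fell by 1.19 (SE 0.08, adjusted p = 0.0139), with no overlap and a probe set that matches several genes. THI4, for the thiazole part of thiamine, fell by 0.77, while the thiamine transporter gene THI7 rose by 0.58. SNO1 and SNZ1, the vitamin B6 pair that is induced as growth slows, were at 1.73 and 1.45 without a call (adjusted p = 0.0598 and 0.0665). Of the carnitine acetyltransferase genes, YAT1 fell by 0.51 and YAT2 rose by 0.57, each with all 3 pairs in its direction, as in every call.

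The strain difference was then read in the treated arrays, which the test did not use, by matching mutant and wild type at the same time of the same course in 26 pairs. Of the 4 courses 3 come from the cultures of the untreated arrays, so these pairs are not independent of them. Arrays of a course share a culture, so the pairs within a course are not independent of each other and are not replicates. Of the 69 probe sets called lower, 50 were lower in all 26 pairs (72.5%), against 4.38% of all tested probe sets, and 64 were lower in at least 20. Of those called higher, 7 of 63 were higher in all 26 pairs (11.1%), against 1.69% of all tested, and 22 in at least 20. The decay course with H2O2 has no untreated array here and its label names a course of its own. In its 7 pairs 56 of the 69 called lower were lower throughout (81.2%, against 18.6% of all tested), and 19 of the 63 called higher were higher throughout (30.2%, against 11.8%). The difference between the lower and the higher group was not tested.

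**Figure D4:**
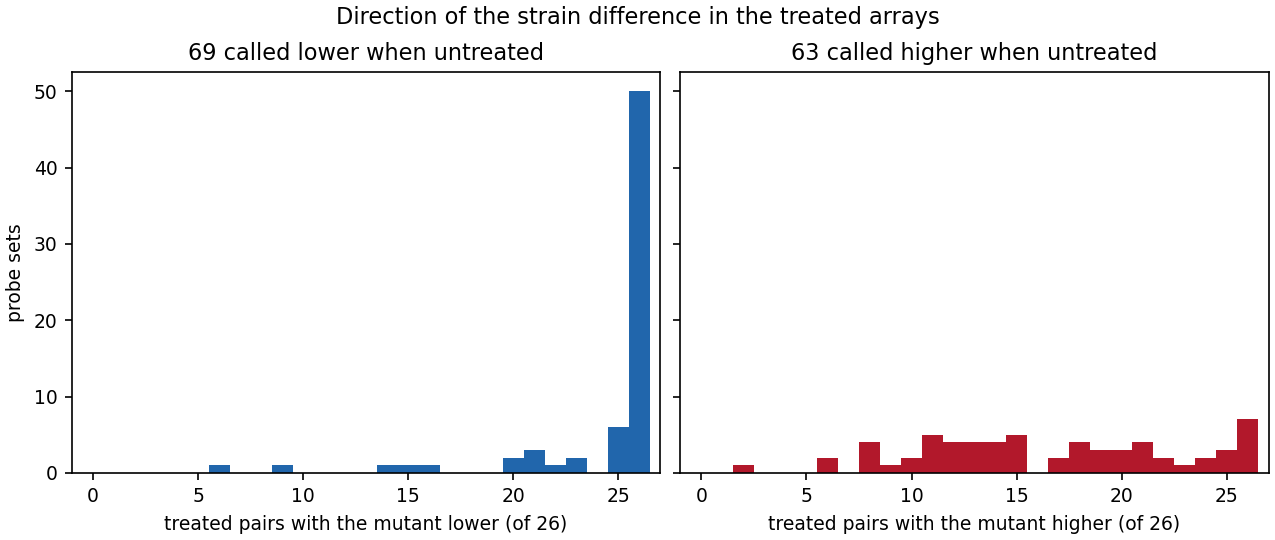
Number of probe sets (vertical axis) by the number of 26 treated pairs, matched for course and time, in which the mutant kept its untreated direction, for the 69 called lower (left) and the 63 called higher (right). The left bars gather at 26 with 50 probe sets, and the right bars spread from 2 to 26.

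HMS1 was higher in 26 of 26 treated pairs, with a median of 1.96, and YER187W lower in 26 of 26 with a median of -2.34. The pheromone list kept a median below 0 in all 26 pairs, at -0.61 in the H2O2 course, -0.61 in the MMS course, -0.24 in the reference decay course and -0.31 in the decay course with H2O2. The seripauperins and the meiosis list were also below 0 in all 26 pairs, and the mitotic list above 0 in all 26. The sulfur list did not keep its sign. Its median was 0.03 in the H2O2 course, 0.01 in the MMS course, -0.51 in the reference decay course and -0.94 in the decay course with H2O2. The processome and the large subunit assembly lists, slightly lower when untreated, had medians above 0 in 20 of 26 treated pairs, and the general stress list, higher when untreated, had medians below 0 in 21.

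The untreated difference was set beside the response to stress, with arrays of separate courses on either side so that no array enters both. Across 5498 probe sets the difference in pairs 1 and 3 correlated with the wild-type response to MMS, taken as the mean of 80 to 180 min minus 0 min, at 0.41 (Pearson and Spearman). The difference in pairs 2 and 3 correlated with the wild-type response to H2O2, the mean of 10 and 15 min minus 0 min, at 0.23 (Pearson) and 0.31 (Spearman). With the responses of the mutant itself the correlations were 0.29 (Pearson) and 0.31 (Spearman) for MMS and 0.09 (Pearson) and 0.18 (Spearman) for H2O2. These are descriptions across genes of the same arrays. Both differences include pair 3, and no correlation with a stress response was taken without it. The general stress median was 0.73 in pair 3, against 0.09 and 0.10 in pairs 1 and 2. The processome median was -0.42 in pair 3, against -0.17 and -0.11 in pairs 1 and 2. In the lists the general stress genes, with a difference of 0.50 in pairs 1 and 3, responded to MMS by 2.67, and the processome genes, with a difference of -0.31, by -2.10. The pheromone list, at -0.67, responded by -0.41, and oxidative phosphorylation, at 0.41, by 0.02. The mitotic list ran the other way, with a difference of 0.25 and a response of -1.77.

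Beside mRNA decay, the difference in pairs 1 and 2 correlated with the slope of level on time after phenanthroline in the wild type at 0.21 (Pearson) and 0.24 (Spearman). It correlated with the slope of the mutant minus that of the wild type at -0.25 (Pearson) and -0.26 (Spearman). A more negative slope is faster loss relative to the average mRNA. The slopes behind these weak correlations come from 1 culture per strain, and the difference from pairs 1 and 2. The correlations run across genes and carry no test.

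RMA removes any difference in the total amount of mRNA, so the control probe sets of the arrays were read separately. The 32 poly-A spike-in probe sets above background, which read bacterial transcripts added to the RNA, were higher in the mutant by a median of 0.46, 0.60 and 0.19 in pairs 1, 2 and 3. They were higher in 31, 32 and 28 of the 32, but all come from 4 transcripts and do not count as replicates. The 17 rRNA probe sets were higher by 0.46, 0.54 and 0.04, the hybridization controls differed by 0.15, -0.13 and 0.07, and the 3 ACT1 control probe sets by -0.02, -0.02 and 0.03. With 3 pairs an exact sign-flip test cannot go below a two-sided p of 0.25. Centred on the spike-ins, the median of all probe sets was -0.53, and the differences above shift down together. The sulfur and arginine lists then had medians of 0.03 and 0.04, oxidative phosphorylation and general stress of -0.18 each, and the processome list of -0.77. Centring takes the same value from every probe set of an array, so the order of these lists could not change. The direction of a small rise holds only relative to the average mRNA. Under this shift 124 of the 132 called probe sets kept their sign, and those that did not had been called higher with small differences.

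**Figure D5:**
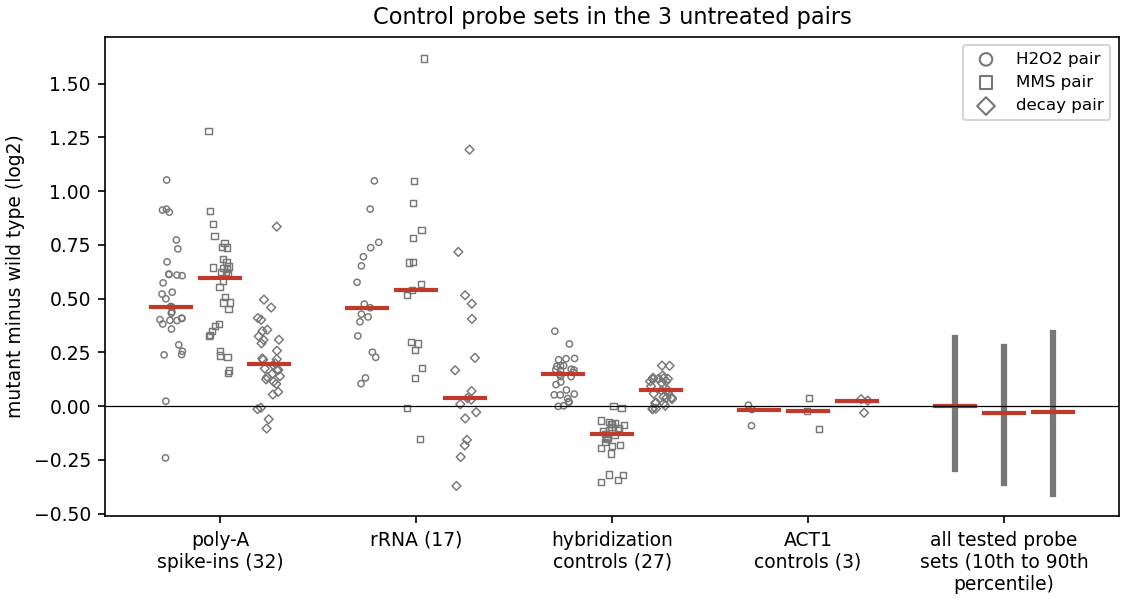
Difference between mutant and wild type (log2) of the control probe sets in the 3 untreated pairs, with open symbols for single probe sets, red bars for medians and, at the right, grey bars from the 10th to the 90th percentile of all tested probe sets. The spike-in medians lie at 0.46, 0.60 and 0.19, above those of ACT1 and of all tested probe sets, and the pairs differ from each other.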

How the data were processed

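Yeast 2.0 arrays of untreated cells were used, 3 per strain. Per the study's methods the authors made the deposited log2 values by RMA. They fall into 3 sets normalized apart, which differ between courses but not within a pair. Versions, build and annotation are not given in the sources used here. A deposited table of the authors' own log2 fold changes and decay ratios was not used.

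Of 10928 probe sets, 5498 match S. cerevisiae genes of the platform annotation that are in the RefSeq gene table (R64) and were tested (5449 genes; 47 have several probe sets, with no disagreement in calls). limma 3.58.1 in R 4.3.3 was fitted with the pair as a block, with Benjamini-Hochberg adjustment over all of them. Same-numbered arrays deviate together from their strain means (correlations 0.665, 0.820 and 0.738), and the pairing comes from the course labels. For a single value the exact permutation test cannot go below p = 0.10 with 3 against 3, or 0.25 with 3 pairs.

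On simulated data of this comparison (5498 probe sets, 200 changed) the fit recovered 45.7% of differences of log2 0.5, 80.6% of 1 and 93.6% of 2, with at most 7 false calls. The noise was normal and drawn independently for each probe set, with its residual spread in the fit. Deviations shared by many genes of a pair were not simulated, so these rates need not hold for the real arrays.

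The rule for naming genes covered the 12 largest called differences in each direction and the 4 largest of each of 53 lists. It also covered all RNA polymerase II subunits, marker genes and their neighbours. Not every gene under this rule is named in the text. Called genes outside this rule were added after their values were seen. The comparison, the lists and the tests were chosen with earlier results of these data known. A list counts 1 probe set per gene, that with the highest level. Python 3.11.15 with pandas 2.3.3 and scipy 1.17.1 gave the summaries and matplotlib 3.10.9 the figures. The alternatives were no block, each pair left out, other normalizations, a filter on low levels, a variance trend, and other thresholds, of which the adjusted p under 0.10 was chosen after the data were seen.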

Additional observations from a re-analysis of the deposited data

Results flagged for a closer look

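Control probe sets outside the main comparison differed between the strains. Mutant minus wild type, the mean of the 3 pair medians was 0.417 for the 32 poly-A spike-in probe sets, with an SD of 0.204 between pairs, and 0.344 for the 17 rRNA probe sets, with an SD of 0.270. In pair 3, the reference decay pair, the rRNA median was 0.04. The ACT1 controls differed by -0.02, -0.02 and 0.03, the hybridization controls by 0.15, -0.13 and 0.07 and the URA3 controls by -0.43, -0.85 and -1.13 in pairs 1, 2 and 3. Whether the amount of RNA, the amount of spike-in or the labelling differed between the strains was not tested.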

How the results depend on the processing

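With the pair as a replicate block 132 probe sets were called (63 higher, 69 lower), and with no replicate block 1 was called, 0 higher and 1 lower, with 222 at an unadjusted p under 0.05. Leaving out 1 pair gave between 9 and 115 calls, between 1 and 32 higher and between 8 and 83 lower; the low counts came without pair 2 (9) and without pair 3 (18). These fits have fewer samples. Centring on the S. pombe probe sets gave 81 calls (38 higher, 43 lower), and centring on the spike-ins gave 3613 (25 higher, 3588 lower), since it moves all probe sets down together. A variance trend gave 415 (209 higher, 206 lower), a further minimum of log2 1 gave 41 (13 higher, 28 lower) and an adjusted p under 0.10 gave 485 (230 higher, 255 lower). Quantile normalization of the 6 arrays gave 103 calls, 97 of them among the 132, and the filter on low levels gave 165. Of 119 genes in the text 2 changed sign in some setting, neither of them called. ASG7 was at -0.062 when centred on the spike-ins. RPB4, at 0.01, was at -0.0177 after quantile normalization, -0.0035 when centred on S. pombe and -0.5008 when centred on the spike-ins, and between -0.0714 and 0.0533 with 1 pair left out. With 3 arrays per strain, small differences and genes near background are limited by the number of arrays.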

Other observations

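Several large differences were not called because the pairs differed in size. SER3, for serine synthesis, was at 1.71 (adjusted p = 0.0544 by limma), GIT1, a glycerophosphoinositol permease, at -1.78 (adjusted p = 0.0631) and CDA1, a chitin deacetylase of the spore wall, at -1.995 (adjusted p = 0.0631). These genes were chosen after their values were seen.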
